A study of Hydra vulgaris with 99 samples.

Results

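Hydra is a freshwater polyp whose tubular body carries a head at the apical end and, at the basal end, a foot made of a narrow stalk (the peduncle) and an adhesive basal disk. Epithelial cells of the basal disk secrete the mucus that fixes the animal to its support. After a transverse section either end can rebuild what was lost, so that tissue from the middle of the body forms a foot on one face of the section and a head on the other. The loci described here are those whose transcripts were abundant in the foot, scarce in the head, and already raised in basal-regenerating tips within the first 8 h after section.

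The members were chosen by a rule on expression. Counts were summed over the transcript sequences of each locus, scaled by library total to CPM, the standard depth-corrected unit of reads, and averaged over the 3 libraries of a group, and levels were taken as log2(mean CPM + 1). A foot locus had a foot level of at least 3 on this scale and a foot level at least 2 above the head level. Its onset was the first time at which the level in basal-regenerating tips was at least 1 above the 0 h level and stayed so at all later times. Of 25879 loci, 506 were foot loci and 31 of them had an onset between 0.5 and 8 h. The ceiling of 150 loci in the rule was therefore not reached. Of the other foot loci, 85 had their onset at 16 or 24 h, 76 at 36 or 48 h and 314 had no lasting onset by 48 h. All 31 members were among the 20883 loci that entered the tests.

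The samples were polyA RNA of Hydra vulgaris, strain Jussy, not otherwise treated, in 33 groups with 3 libraries each, lettered A, B and C and labelled as biological replicates, and 20 to 25 animals were pooled for a library. Tips were collected in 3 series, early at 0, 0.5, 1, 2 and 4 h after section and later at 8, 16, 24, 36 and 48 h. These were basal-regenerating tips cut at the 50% level of the body axis (mid-gastric), apical-regenerating tips cut at the same 50% level, and apical-regenerating tips cut at the 80% level, which is a decapitation. Homeostatic tissue gave the foot group (basal disk with the lower peduncle), a group of intact animals, and the head group (apical region, taken by a section below the tentacles). A tip is a mixture of cell types, so that a change in RNA per cell and a change in the share of a cell type cannot be told apart in these values. The 99 libraries held 26401348 to 54273942 counted reads, with a median of 33209894.

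The rule used the foot, the head and every basal-regenerating library. Values of those groups are given as a description without a test. The apical series and the intact animals played no part in the choice, and all tests below concern them. The deposited identifiers could not be matched to named genes, so that members are called by locus identifier or by their rank in foot over head, and no protein function is given for any of them.

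In homeostatic tissue the difference between foot and head, on the log2(mean CPM + 1) scale, ran from 9.75 for the locus at rank 1 down to 2.14 at rank 31, with a median of 4.63. The nearest foot-rich locus with an early onset outside this limit had a difference of 1.98. Mean foot levels ran from 7.83 to 2609 CPM with a median of 174 CPM, against 0.0938 to 249.8 CPM in the head with a median of 3.88 CPM. Rank 1 had 3096, 3060 and 1669 CPM in the foot libraries A, B and C, against 1.33, 1.90 and 2.87 CPM in the head libraries. The summed level of the 31 members was 17037 and 16754 CPM in foot libraries A and B and 10397.5 CPM in foot library C, against 420 to 600 CPM in the head libraries. Foot library C thus stood below the other feet, but still far above every head.

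Intact animals lay between foot and head for most members. The foot was above intact animals in all 31 members, by a median of 2.63 on the log2(mean CPM + 1) scale and by 0.54 at least. Intact animals were above the head in 29 members, with a median difference of 1.86 over the 31. Intact animals were also set against freshly cut apical tips, where neither group had been used in the choice. The rule bears on the outcome all the same. Intact animals include the foot, and a low 0 h level in basal tips cut at the same 50% level helps a locus to enter. Against apical 50% tips at 0 h, 16 of the 31 members were called higher and 0 lower in intact animals. Among all loci tested, 5.69% were called higher in that comparison and 0.273% lower. Of the other foot loci, 56 of 85 with onset at 16 or 24 h were called higher in intact animals. So were 43 of 76 with onset at 36 or 48 h, but only 2 of 314 with no lasting onset. Against apical 80% tips at 0 h, 20 members were called higher and 0 lower, where 5.05% and 0.283% of all loci were. In the other foot classes, in the same order, 71, 48 and 15 loci were called higher there. A call here and below is an edgeR quasi-likelihood adjusted p under 0.05 (Benjamini-Hochberg over all loci tested) together with a fold change of 2 or more in either direction.

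In basal-regenerating tips the onsets were spread over the first 8 h. Of the members 1, 5, 7, 10 and 8 had their onset at 0.5, 1, 2, 4 and 8 h in that order. These times rest on means of 3 libraries, which a single library can carry. The onset at 0.5 h is that of loc04281, whose libraries differed widely within groups. In library A of basal tips at 2 h, 5 of the 10 members of highest rank were at least 3 times the next library. The lowest rise held from 8 to 48 h by any member was 1.02, and the nearest foot locus left out reached 0.978. Many members were not silent before. At 0 h in basal tips 9 members had a mean under 1 CPM, 13 had 1 to 10 CPM and 9 had 10 CPM or more, up to 288 CPM. For the last 9 the rule marks a rise from an existing level. The median rise over the members was 1.92 at 8 h and 4.04 at 48 h on the log2(mean CPM + 1) scale. By 8 h only 9 members had passed 50% of their foot level, and by 48 h 23 had. The mean level in basal tips was highest at 36 or 48 h in 24 members and at 4 to 24 h in the other 7. The median member stood at 18.7% of its foot level at 8 h and at 66.4% at 48 h.

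**Figure D1:**
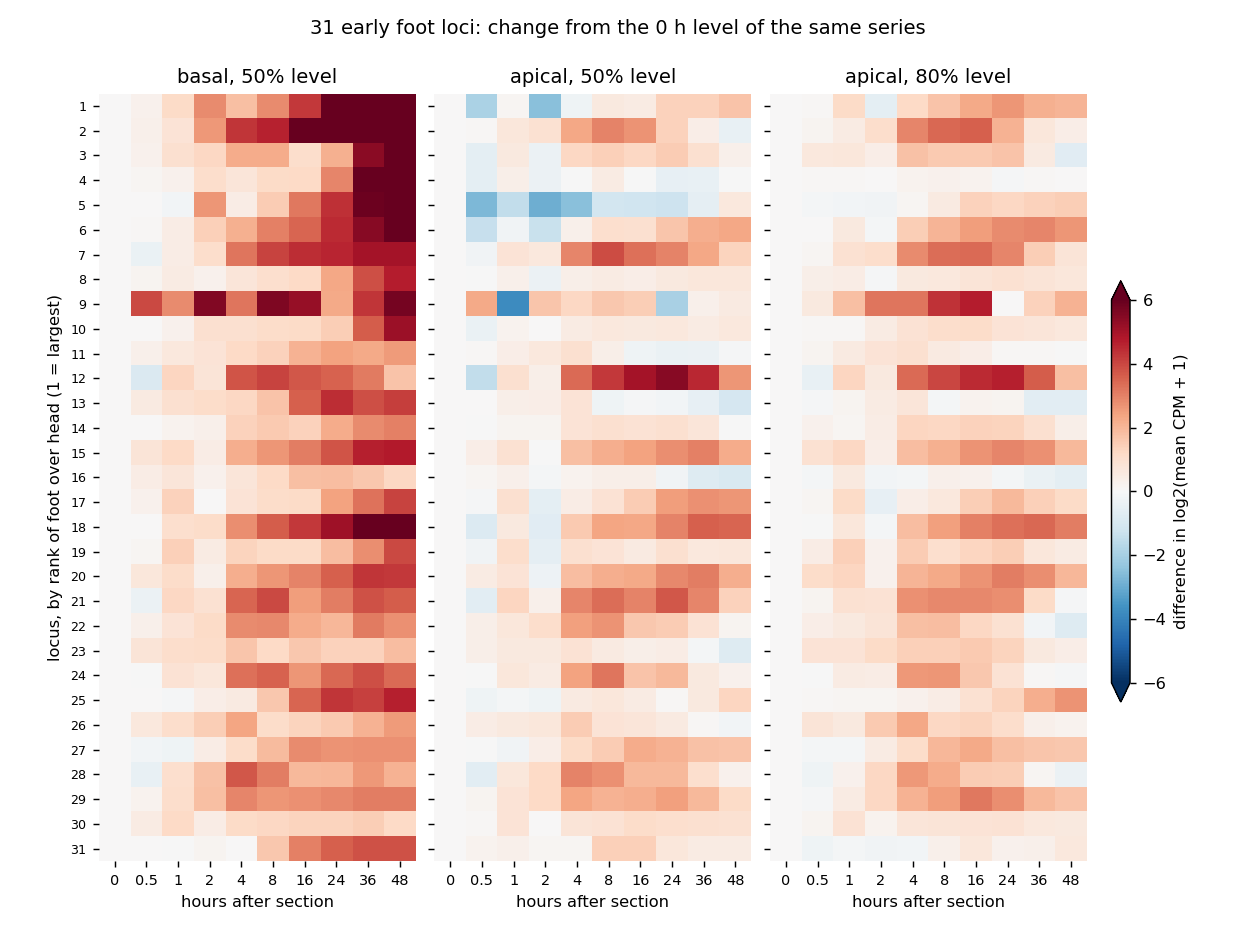
Change of each of the 31 members from the 0 h level of the same series, as difference in log2(mean CPM + 1), with members in rows by rank of foot over head and hours after section in columns; each cell is a mean of 3 libraries and colours saturate at 6 in either direction. The basal panel darkens up to 48 h, while most rows of the apical panels are darkest at 4 to 24 h and pale again by 48 h.

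The apical series show whether the same loci also moved in tips that do not make a foot. Apical 50% tips are cut at the same level as the basal tips and make a head. At 0.5 and at 1 h after section 0 members were called higher or lower than at 0 h by edgeR, where 0% and 0.163% of all loci were called higher. With no adjustment, 6 members at 0.5 h and 13 at 1 h had p under 0.05. Among the 20883 loci tested, 919 and 1898 had. All 6 at 0.5 h were lower than at 0 h, with log2 fold changes from -0.93 to -4.37. Of the 13 at 1 h, ranks 5 and 9 were lower (log2 fold changes -1.79 and -4.72) and the others higher. DESeq2 called 1 lower at 0.5 h and 0 higher at 1 h. At 2 h, 1 member was called higher, with 0.733% of all loci, and 2 were called lower, with 0.211% of all loci. Without the A libraries 0 were higher at 2 h, and 1 and 0 were lower without the B and without the C libraries. At 4 h, 15 of the 31 were called higher, against 1.5% of all loci, and 6 with only the libraries of that contrast in the fit. At 8 h again 15 were called higher and 0 lower, against 1.4% and 0.517% of all loci. Later counts were 16, 18, 11 and 12 at 16, 24, 36 and 48 h, where 1.8%, 2.77%, 4.21% and 6.08% of all loci were called higher. At 48 h 2 members were called lower, with 2.14% of all loci. The median log2 fold change of the members was 1.47 at 8 h and 0.83 at 48 h, while that of all loci tested was -0.01 and 0.01.

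Decapitated animals were examined in the same way. In apical 80% tips 0 members were called at 0.5 and 1 h by edgeR, where 0% and 0.0431% of all loci were called higher. An unadjusted p under 0.05 was found in 3 and 9 members, and in 1308 and 1301 of the 20883 loci tested. Of the 3 at 0.5 h, rank 31 was lower (log2 fold change -1.17) and the others higher, and all 9 at 1 h were higher. At 1 h DESeq2 called 2 higher, and edgeR called 2 without the A libraries. At 2 h, 2 members were called higher, against 0.565% of all loci, with 1 and 0 without the A and without the C libraries. At 4 h, 20 of the 31 were called higher, against 1.19% of all loci. That count was 7 without the C libraries and 2 with only the libraries of the contrast in the fit. At 8 h 17 were called higher and 0 lower, against 1.27% and 0.182% of all loci. At 16, 24, 36 and 48 h the counts were 20, 19, 12 and 11, where 1.79%, 2.68%, 4.12% and 6.38% of all loci were called higher. At 48 h 1 was called lower, with 2.1% of all loci, and 0 and 2 were without the B and without the C libraries. The median log2 fold change of the members was 2.07 at 8 h and 0.68 at 48 h, against 0.03 and 0.06 for all loci. Without the B libraries the count at 8 h was 11, and without the C libraries the count at 48 h was 7.

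**Figure D2:**
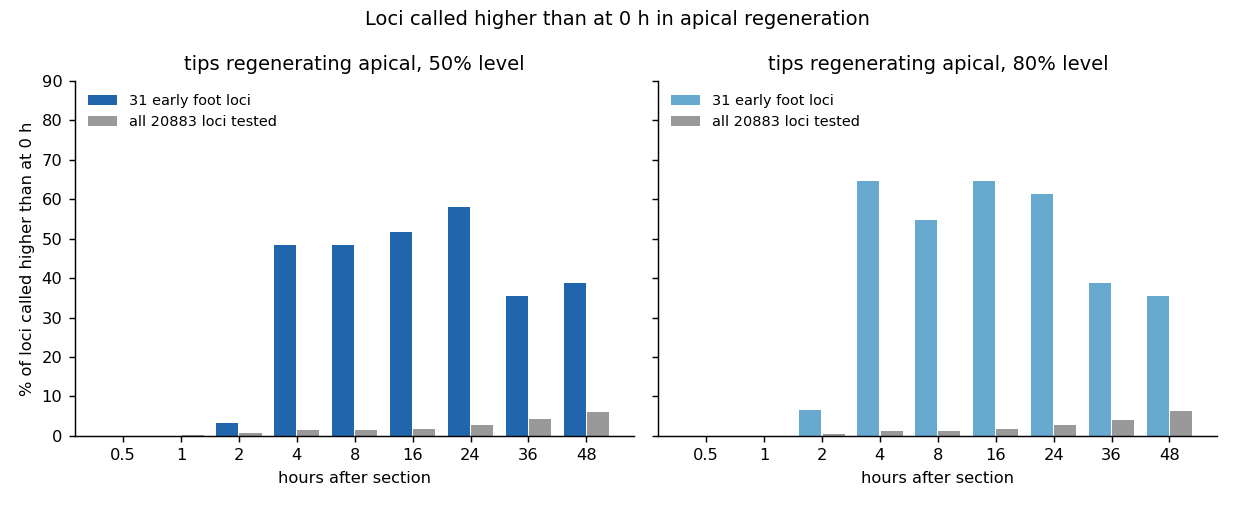
Percentage of loci called higher than at 0 h in apical tips cut at the 50% level (left) and the 80% level (right) at each later time, for the 31 members (coloured bars) and all 20883 loci tested (grey bars). The members' bars stand at 0 at 0.5 and 1 h, are tallest between 4 and 24 h, and shrink at 36 and 48 h while the grey bars grow.

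The 2 apical series share no library, and most of the members they raised were in both lists. At 8 h, 14 members were called higher in both, which is 93.3% of the 15 called in apical 50% tips and 82.4% of the 17 called in apical 80% tips. Over 4, 8, 16 and 24 h together, 22 members were called higher at one time or more in apical 50% tips and 24 in apical 80% tips, of which 21 were in both lists and 6 in neither. Replicate letters gave a common departure as well. The summed level of the 31 members at 4 h was lowest in library A of all 3 series, with 1504 CPM in apical 50% tips against 2036 and 2026 CPM in B and C, and 1026 against 1955 and 1697 CPM in apical 80% tips. The same order of A below B and C held at 1 h in all 3 series. At 8 h the sum was highest in library B of all 3 series. It was 2690, 2244 and 2874 CPM there in apical 50%, apical 80% and basal tips. The basal libraries of 8 h, which the rule used, thus departed in the same direction as the apical ones tested. Without the A, B or C libraries in turn, 15, 11 and 10 members were called higher at 4 h in apical 50% tips, and 19, 15 and 7 in apical 80% tips.

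The rise in apical tips was partly lost later. From 8 to 48 h in apical 50% tips, 13 members were called lower and 3 higher, against 1.89% and 5.61% of all loci, and 1 and 0 were higher without the A and without the B libraries. Those called lower include ranks 13 and 16, which were called higher at none of the times from 4 to 24 h. Rank 13 rose at 4 h by less than the 2-fold limit, but at 8 h its log2 fold change from 0 h was -0.300. The count is therefore not of lost rises alone. In apical 80% tips 13 were called lower and 1 higher, against 1.54% and 3.97% of all loci, and without the B libraries 7 were called lower. Of these, 12 members were called lower in both series, which is 92.3% of either list. The mean level peaked at 4 to 24 h in 19 members in apical 50% tips and in 26 in apical 80% tips, and at 36 or 48 h in 10 and in 4. A lasting onset by 8 h in the sense of the rule, with the level at least 1 above 0 h at 8 h and at all later times, was met by 8 members in apical 50% tips and by 8 in apical 80% tips. Among all loci tested 0.436% and 0.426% met it. A further 4 members had a lasting onset at 16 to 48 h in each apical series and 19 had none.

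Basal and apical tips of the 50% level were close to each other at 8 h and far apart at 48 h. Since the basal level was used in the choice, the difference is a description. At 8 h the basal mean was above the apical mean by a median of 0.11 on the log2(mean CPM + 1) scale, with a range over the members of -0.98 to 0.96, so that 0 members were higher in basal tips by 1 or more, where 0.22% of all loci were, and 0 lower. All basal libraries lay above all apical 50% libraries in 4 members and below them in 1, where 6.32% and 7.49% of all loci did. By 16, 24, 36 and 48 h the median difference in log2(mean CPM + 1) had become 0.49, 0.85, 1.78 and 2.55. At 48 h the basal mean was higher by 1 or more in 29 members, against 2.24% of all loci, and the libraries did not overlap in 28, against 16.1% of all loci. At 0 h the order was the other way for part of the set. Apical 50% libraries lay above all basal libraries in 11 members, and basal libraries lay above all apical libraries in 0, with 3.86% and 3.49% of all loci. A low basal level at 0 h helps a locus to enter the set, so nothing is read from this count.

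The members described next were named by their response in apical 50% tips at 8 h, from 19 members with a mean of at least 10 CPM at 8 h in basal or apical 50% tips. The first pair has the highest fold changes among those whose 8 h and 0 h libraries did not overlap. Since 0 members fell without overlap, the other pair has the lowest fold changes whatever the overlap.

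loc18216, at rank 24, was nearly absent at 0 h, rose by 8 h and fell again in apical tips. It had 5.87, 14.7 and 5.66 CPM in apical 50% tips at 8 h, against 0.0572, 0.0847 and 0.0279 CPM at 0 h. The 0 h libraries held 2, 3 and 1 reads, and the ratio of summed CPM was 159.6, with an exact 95% interval of 73.0 to 436 that covers counting error only. The edgeR log2 fold change was 7.21 (SE 1.18, adjusted p = 7.98e-06), where the SE was derived from the F statistic. In apical 80% tips it had 1.59, 13.1 and 3.14 CPM at 8 h, against 0.0966, 0.223 and 0 CPM at 0 h (log2 fold change 5.67, SE 1.08, adjusted p = 0.000251). At 48 h it had 0.151, 0.630 and 0 CPM in apical 50% tips, against the 8 h values above, and was called lower by 5.17 on the log2 scale (SE 0.98, adjusted p = 2.45e-05). Basal tips had 8.19, 20.0 and 5.86 CPM at 8 h and 7.14, 5.99 and 17.9 CPM at 48 h, so that all 3 series were raised at 8 h and the basal one alone stayed at the foot level of 7.83 ± 0.94 CPM (SD, n = 3). In the head it averaged 0.0938 ± 0.119 CPM (SD, n = 3). The 8 h call in apical 80% tips was lost without the B libraries, at a log2 fold change of 5.37, and with only the libraries of the contrast, at 5.68.

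loc23338, at rank 12, rose to a higher level in apical tips than in the foot itself. It had 387, 394 and 270 CPM in apical 50% tips at 8 h, against 8.95, 35.0 and 8.01 CPM at 0 h (log2 fold change 4.35, SE 0.74, edgeR adjusted p = 1.68e-05). Its apical 50% mean went on to 808 ± 37.6 CPM at 24 h and was 113 ± 58.7 CPM at 48 h (SD, n = 3 each). Apical 80% tips had 513, 441 and 306 CPM at 8 h, against 13.0, 60.0 and 2.72 CPM at 0 h (log2 fold change 4.05, SE 0.72, edgeR adjusted p = 8.63e-05). With only the libraries of that contrast the log2 fold change was 4.05 and the call was lost. Basal tips averaged 393 ± 102 CPM at 8 h and 75.6 ± 25.1 CPM at 48 h (SD, n = 3 each). The foot averaged 329 ± 79.3 CPM and the head 9.61 ± 3.97 CPM (SD, n = 3 each). Of the 31 members this was the one whose basal mean at 48 h lay below the apical 50% mean by most, by 0.57 on the log2(mean CPM + 1) scale.

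loc06900, at rank 8, stayed within a log2 fold change of 1 of its 0 h level at 8 and 48 h in both apical series and was high in basal tips late. In apical 50% tips it had 69.4, 93.4 and 86.7 CPM at 8 h, against 54.3, 47.8 and 74.3 CPM at 0 h, and was not called (log2 fold change 0.51, SE 0.24, edgeR adjusted p = 0.272). In apical 50% tips at 48 h it had 84.5, 120 and 83.8 CPM. Basal tips had 79.5, 110 and 98.4 CPM at 8 h, but 1175, 1426 and 1139 CPM at 48 h. Foot libraries had 2392, 2332 and 1255 CPM, against 45.9, 46.9 and 55.0 CPM in the head. Its basal rise at 8 h, 1.02, was the smallest of the set and only just reached the limit of the rule.

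loc21129, at rank 16, was far above its head level in apical 50% tips from the start. In basal tips it rose by 1.18 on the log2(mean CPM + 1) scale from 0 to 8 h. Apical 50% tips had 89.1, 93.9 and 91.0 CPM at 8 h, against 59.4, 91.6 and 61.7 CPM at 0 h, and was not called (log2 fold change 0.38, SE 0.28, edgeR adjusted p = 0.551). At 48 h it had 42.4, 38.0 and 32.8 CPM in apical 50% tips, below every 8 h library, and was called lower by 1.36 on the log2 scale (SE 0.28, adjusted p = 0.000129). Basal tips averaged 101 ± 8.55 CPM at 8 h and 106 ± 33.7 CPM at 48 h (SD, n = 3 each). The foot averaged 174 ± 39.9 CPM and the head 6.09 ± 1.81 CPM (SD, n = 3 each).

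**Figure D3:**
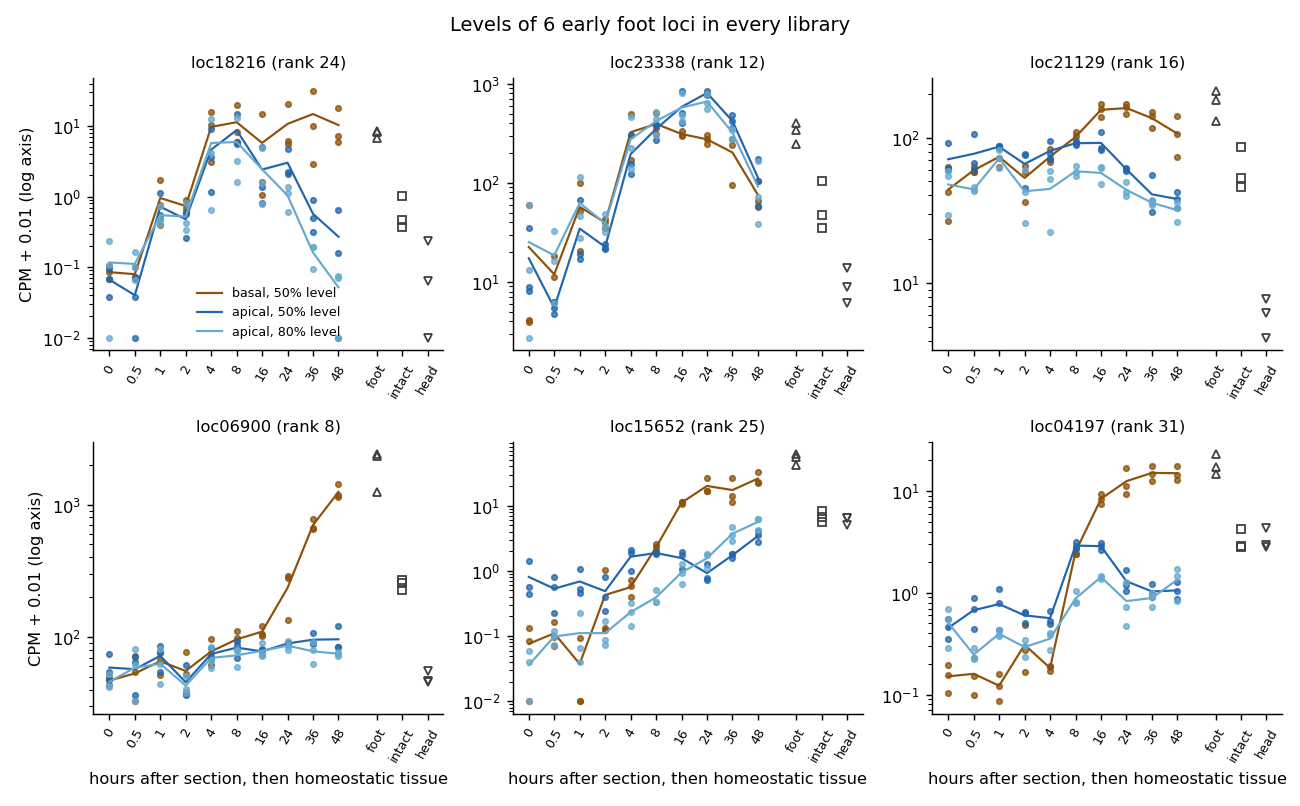
Level of 6 members in every library (points) with group means (lines) over hours after section in basal tips and in apical tips of both levels, then in foot, intact animals and head, as CPM + 0.01 on a log axis. loc18216 and loc23338 rise in all 3 series by 4 h, loc06900 averages 1247 CPM in basal tips at 48 h and 96.2 CPM in apical 50% tips, and for loc15652 and loc04197 the apical series differ from each other.

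Besides loc06900 and loc21129, the members called higher at none of the 4, 8, 16 and 24 h times in either apical series were those at ranks 4, 5 and 13 and loc04281. Rank 4 had the widest gap of all members between basal and apical 50% tips at 48 h, 6.28 on the log2(mean CPM + 1) scale. Its apical 50% libraries had 1.85, 2.48 and 2.00 CPM at 8 h and 0.392, 2.46 and 0.668 CPM at 48 h, whereas basal libraries had 1.83, 2.54 and 1.70 CPM at 8 h and between 137 and 192 CPM at 48 h. Rank 13 peaked at 4 h in both apical series, with log2 fold changes of 0.983 and 0.962 in apical 50% and apical 80% tips. Both had an edgeR adjusted p under 0.05 but missed the 2-fold limit of a call. By 48 h rank 13 had fallen below its 0 h level. It had 1.75, 2.05 and 1.43 CPM in apical 50% tips at 48 h, against 6.32, 3.95 and 3.18 CPM at 0 h, and was called lower by 1.42 on the log2 scale (SE 0.29, edgeR adjusted p = 6.54e-05). A missing call is not a missing rise. In apical 80% tips at 16 h, loc04281 had a log2 fold change of 5.05 (SE 2.08) and rank 5 of 2.65 (SE 1.16), neither called. These 6 members had a median basal rise of 1.36 at 8 h and 5.23 at 48 h on the log2(mean CPM + 1) scale, against 2.63 and 3.81 for the 25 that were called higher in an apical series at 4 to 24 h. The rule used the basal values, so these medians are a description and their difference was not tested.

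Rank 5 shows how a single library enters these values. In apical 50% tips at 0 h it had 0.429 and 0.169 CPM in libraries A and B and 23.6 CPM in library C, and its foot mean was 1141 CPM. Rank 1 likewise had 6.06, 5.56 and 41.0 CPM there. In that library 4 of the 10 members of highest rank were at least 3 times the next library of the group, and in library A of basal tips at 2 h 5 of the 10 were. For rank 5 that basal library had 21.7 CPM and the other 2 had 0.124 and 0.113 CPM. The members called lower in apical 50% tips were ranks 1 and 5 at 2 h and rank 5 at 4 h, against 0.426% of all loci at 4 h, and 0 were without library C of 0 h at either time. The counts called higher at 8 h were 17 without it and 15 with it.

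loc04281, at rank 9 and singled out after its values were seen, went against the description of the set. It had the earliest onset, 0.5 h, but its level changed by more than 10-fold between the 3 libraries of a group in 24 of 33 groups. In the foot it had 249.9, 66.6 and 37.1 CPM, against 0.678, 2.03 and 3.81 CPM in the head. Basal tips had 4.76, 144 and 69.9 CPM at 8 h, against 0.520, 0.373 and 0.691 CPM at 0 h. Over the 99 libraries it ran from 0.200 to 249.9 CPM with a median of 9.48 CPM. The median over groups of the highest over the lowest library was 20.7, the largest of the 20883 loci tested, against 1.52 for the members as a whole and 1.19 for all loci. Apical 50% tips had 0.363, 195 and 35.3 CPM at 8 h, against 71.5, 2.15 and 0.781 CPM at 0 h (edgeR adjusted p = 0.701). It was not called at 8 h in apical 80% tips either (edgeR adjusted p = 0.244), so leaving it out could not change the counts of members called then.

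**Figure D4:**
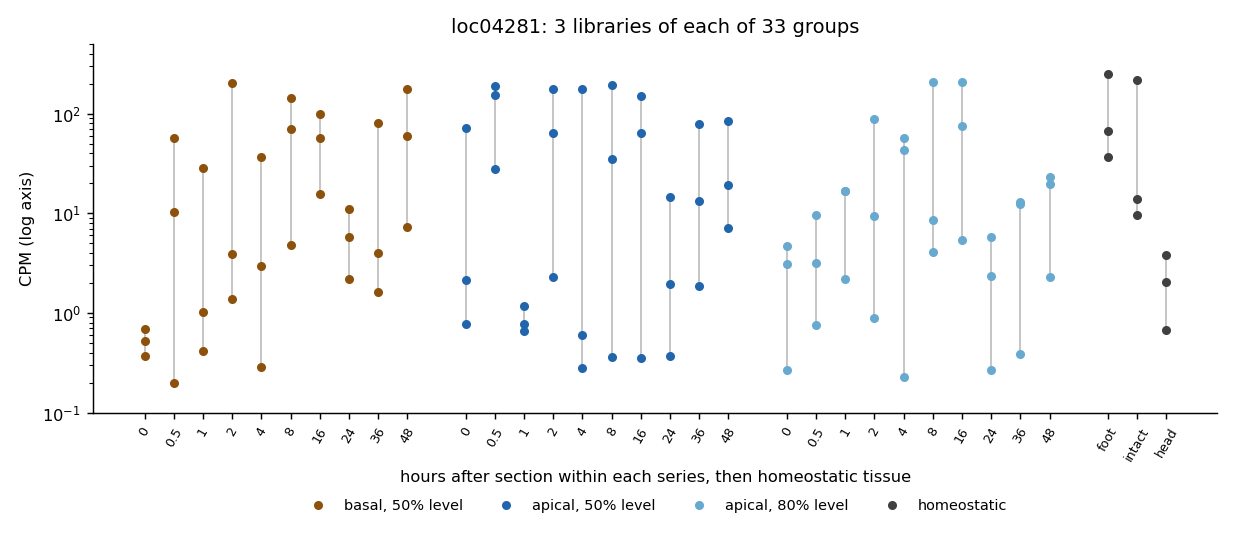
CPM of loc04281 on a log axis in each of the 3 libraries (points, joined by a grey line) of the 33 groups, by hours after section within each series and then in foot, intact animals and head. Libraries of one group are often more than 10-fold apart, from 0.200 to 249.9 CPM over all of them.

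Some members differed between the levels of the apical cut. At 0 h, 7 members were called higher in apical 50% than in apical 80% tips and 0 lower, against 0.613% and 0.991% of all loci. At 8 h, 5 were called higher and 0 lower, against 0.431% and 1.46% of all loci, and without the A libraries 3 were called higher. At 48 h, 2 were called higher and 0 lower, against 0.177% and 0.263% of all loci. That count was 6 with the replicate letter as a block within each time and 0 without the B libraries. Foot loci of the other onset classes shared the difference at 0 h, with 18 of 85, 11 of 76 and 32 of 314 called higher in apical 50% tips for onsets at 16 or 24 h, at 36 or 48 h and none by 48 h. Rank 2 is given as an example, chosen after its values were seen. It had 2.37, 12.2 and 19.6 CPM in apical 50% tips at 0 h, against 0.299 to 1.17 CPM in the 3 apical 80% libraries of 0 h (log2 fold change 3.94, SE 0.55, edgeR adjusted p = 1.47e-07). At 8 h it had 96.7, 86.4 and 105 CPM in apical 50% tips, against 15.1, 21.4 and 16.7 CPM in apical 80% tips. With only the libraries of the contrast in the fit, 1 member was called at 0 h.

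Any change over time was called by the edgeR F-test over the 9 later times in 30 members in apical 50% tips and in 29 in apical 80% tips, against 35.2% and 28.7% of all loci. Foot loci with no lasting onset were also called often, 257 and 271 of 314 in the 2 series. Those with onset at 16 or 24 h were called in 54 and 28 of 85. Onset at 36 or 48 h gave 46 and 27 of 76. The test of whether the time course differed between the apical series called 2 members, loc15652 at rank 25 and loc04197 at rank 31, against 0.996% of all loci. With the replicate letter as a block within each time, which pairs the apical series, 5 members were called, and without the B or without the C libraries 1 was. loc15652 was at a few reads in apical 80% tips at 0 h and was highest there at 48 h. It had 4.28, 6.27 and 6.32 CPM at 48 h, against 0.0483, 0 and 0.0299 CPM at 0 h, from 2, 0 and 1 reads, and the ratio of summed CPM was 204, with an exact 95% interval of 69.4 to 992 for counting error. In apical 50% tips it had 2.72, 4.00 and 3.52 CPM at 48 h, against 0.429, 0.565 and 1.39 CPM at 0 h. It stood at 53.2 ± 9.68 CPM in the foot and 5.95 ± 0.81 CPM in the head (SD, n = 3 each). loc04197 rose at 8 h in apical 50% tips, with 2.85, 2.68 and 3.17 CPM, against 0.343, 0.537 and 0.446 CPM at 0 h (log2 fold change 2.72, SE 0.30, edgeR adjusted p = 1.09e-10). In apical 80% tips it had 0.777, 1.03 and 0.803 CPM at 8 h, against 0.676, 0.279 and 0.539 CPM at 0 h, and was not called (log2 fold change 0.77, SE 0.31, edgeR adjusted p = 0.182). It was called higher there at 16 h (log2 fold change 1.41, SE 0.30, edgeR adjusted p = 0.00071). The log2 fold change at 16 h in apical 50% tips was 2.68 (SE 0.30). The apical 50% libraries at 8 h lay near the basal ones at 8 h, which had 2.38, 2.77 and 2.40 CPM. Basal tips at 48 h stood at 48.7% of the foot level for loc15652 and at 81.6% for loc04197.

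Foot loci with a later onset in basal tips are set beside the members. Called higher in apical 50% tips at 8 h were 15 of 31 members, 3 of 85 loci with onset at 16 or 24 h, 3 of 76 with onset at 36 or 48 h and 2 of 314 with no lasting onset. The median log2 fold changes were 1.47, -0.65, -0.37 and -0.10. In apical 80% tips the counts at 8 h were 17, 5, 1 and 1. From 8 to 48 h in apical 50% tips, 13 of the 31 members were called lower, and 14 of 85, 10 of 76 and 55 of 314 in the other classes. The classes were cut on the basal series, which at 8 h was close to the apical 50% series for the members, and no test of the difference between classes was made.

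Most loci held several transcript sequences, 24 members with 2 to 7 and 7 with 1, and the sequence that led at 8 h was not always the one that led in the foot. The share of a locus's reads taken by each sequence was compared between basal tips at 8 h and the foot. It shifted by 20 percentage points or more in 7 of 24 members with at least 100 reads, against 4.47% of 10198 loci. Between basal tips at 48 h and the foot it did so in 3 of 24, against 2.76% of loci. Between basal and apical 50% tips at 8 h it did so in 0 of 24, against 1.27% of loci. The median largest shift of the members was 12.1 points between basal 8 h and foot and 1.03 points between basal and apical 50% tips at 8 h. How reads of similar sequences were assigned is not stated in the sources used here, and shares of single sequences depend on it.

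The largest shift, 95.3 points, was in loc01408 at rank 3, singled out after its values were seen. One of its 5 sequences, seq02441_loc01408_tr0181845, took 98.4 ± 0.23% of the reads of the locus in basal tips at 8 h and 97.6 ± 0.83% in apical 50% tips at 8 h, but 3.55 ± 1.93% in the foot (SD, n = 3 each). Another, seq02440_loc01408_vl0037548, took 61.5 ± 2.48% in the foot and 0.648 ± 0.334% in basal tips at 8 h (SD, n = 3 each). In CPM the first sequence was at 74.4 ± 23.5 in basal tips at 8 h, 35.5 ± 15.3 in basal tips at 48 h and 66.5 ± 19.7 in the foot. The second was at 0.535 ± 0.373, 950.1 ± 140 and 1303 ± 486 in the same groups (SD, n = 3 each). The remaining 3 sequences summed to 0.625 ± 0.124, 525 ± 55.6 and 731 ± 252 CPM there (SD, n = 3 each). The first was thus near its foot level by 8 h, while the second and the remaining 3 were near 0 at 8 h and high at 48 h. Taken alone, the sequence that led in the foot had its own onset at 24 h, against 2 h for the locus. Over the 31 members the sequence that led in the foot had an onset by 8 h in 27 and after 8 h in 4, and the same onset as its locus in 24. In the 7 members with 1 sequence the onset is that of the locus by construction. The 4 with a later onset were all among the 24 members with several sequences.

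**Figure D5:**
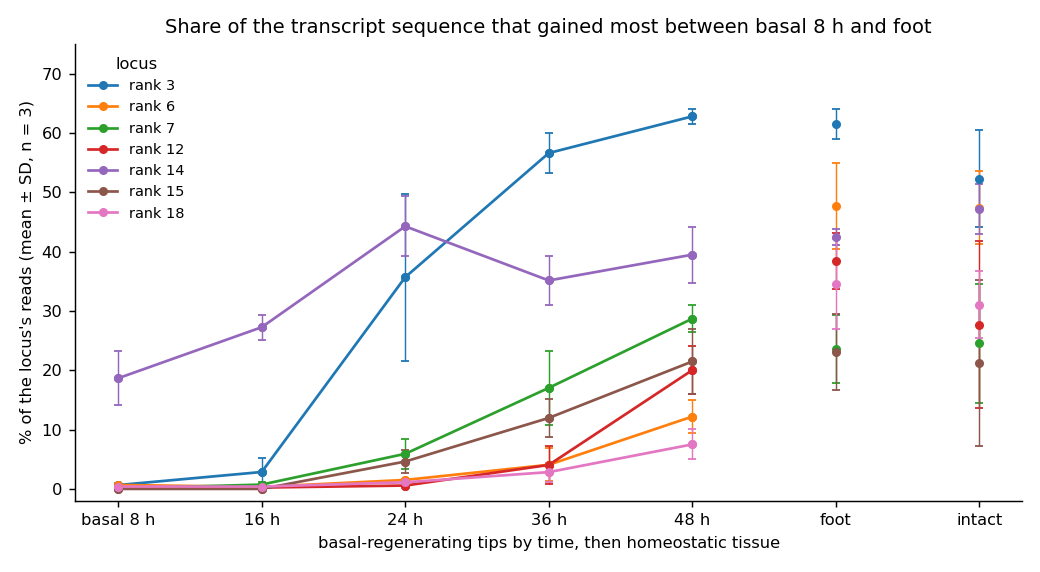
Percentage of a locus's reads (mean ± SD, n = 3) taken by the sequence that gained most between basal 8 h and foot, in the 7 members with a shift of 20 points or more, in basal tips from 8 to 48 h and in foot and intact animals. In 6 of the 7 the share is near 0 at 8 h; rank 3 is at 62.8% by 48 h and rank 18 at 7.51%.

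Some members ran closely together. Over the 99 libraries, where the values of a pair share library and depth, Pearson's r of log2(CPM + 1) between 2 members had a median of 0.644 over 465 pairs and ran from 0.153 to 0.992. The closest pair was ranks 15 and 20. In apical 50% tips at 8 h rank 15 had 17.2, 48.5 and 38.8 CPM and rank 20 had 31.3, 99.1 and 76.4 CPM, each lowest in A and highest in B. Their difference in log2(CPM + 1) stayed between -1.35 and -0.36 in all 99 libraries. The next pair, ranks 6 and 18, had r = 0.960. No sequence was at hand to tell whether the members of a pair share reads. In addition 3 pairs of members have locus numbers within 4 of each other, but what the numbering follows is not stated.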

How the data were processed

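Directional polyA libraries (Illumina TruSeq, per the labels' protocols) from 99 samples were analysed from the raw counts that the authors deposited, whole-number counts for transcript sequences that were summed here per locus by the locus part of the identifier. Per the submitters' processing notes, cutadapt 1.11, Salmon 0.7.2 and DESeq2 were used. Their roles, the transcriptome, the build and any filter are not given in the sources used here. The authors' normalized table was not used. Libraries were grouped by their labels, and no library repeated another of its group within sampling noise.

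Loci passing edgeR's filterByExpr (20883, with 99.98% of the reads) were fitted in R 4.3.3 with edgeR 4.0.16 (TMM factors 0.876 to 1.17, quasi-likelihood F-tests with legacy = TRUE, 33 group coefficients, n = 3 each). Calls needed a Benjamini-Hochberg adjusted p under 0.05 and a change of 2-fold or more either way, and F-tests over time needed the adjusted p alone. Scripts were tested on simulated counts. For apical 50% tips at 8 h against 0 h, 29% of simulated 2-fold and 79% of simulated 4-fold changes were called. A locus that was not called may therefore have changed. Alternatives were RLE scaling, DESeq2 1.42.0, no filter, replicate blocks, replicates left out, the libraries of one contrast alone, no fold minimum, the newer quasi-likelihood method, and members chosen with TMM-scaled CPM. Leaving out single apical 50% 0 h libraries or loc04281, and taking the onset of the sequence that leads in the foot, were added after seeing the data. p-values measure the spread between replicates labelled as biological, and intervals cover counting error only and take the whole numbers as reads, although whether they are rounded estimates is not stated.

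The members and lists were chosen with earlier results of these data known. Named members had 10 CPM or more and the 2 highest log2 fold changes in apical 50% tips at 8 h without overlap between groups, or, as none fell without overlap, the 2 lowest whatever the overlap. None of the identifiers matched the 28925 genes of the RefSeq table (HydraT2T_AEP), so the lists of foot, tentacle, nerve, gland, stem cell and Wnt genes could not be looked up, and the labelled tissues could not be checked against named markers. Same-lettered libraries of the 2 apical series deviated together at each time from 0.5 to 48 h (r 0.347 to 0.840 across loci), so the letters were taken to pair them at those times. They also paired apical 50% tips at 48 and 8 h (r 0.269 to 0.393).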

Additional observations from a re-analysis of the deposited data

Results flagged for a closer look

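The time courses of 2 members differed between the apical 50% and apical 80% series by the edgeR interaction F-test. For loc15652 the adjusted p was 9.62e-10. Its apical 50% mean was above the apical 80% mean at 0 h, with 0.796 ± 0.523 and 0.0261 ± 0.0244 CPM, and below it at 48 h, with 3.41 ± 0.65 and 5.62 ± 1.16 CPM (SD, n = 3 each). For loc04197 the adjusted p was 0.00512. It averaged 2.90 ± 0.249 CPM in apical 50% and 0.869 ± 0.137 CPM in apical 80% tips at 8 h (SD, n = 3 each). Each difference named here held between all 3 libraries of one group and all 3 of the other.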

How the results depend on the processing

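Of 171 recomputed counts for the comparisons, 162 stayed within 1.5 times the count as reported. Of 906 other recomputed values, which are counts for the remaining times and directions and the fold changes of the 4 members named by rule, 841 stayed within that limit or kept their call. Of these fold changes 0 reversed in sign, whereas a count of calls has no sign to reverse. With only the libraries of the contrast in the fit, 7 members were called higher in apical 80% tips at 8 h, 1 was called higher in apical 50% than in apical 80% tips at 0 h, and at 4 h 6 and 2 were called higher in apical 50% and apical 80% tips. Leaving out one replicate letter, or one apical 50% library of 0 h, gave 11 to 17 members called higher at 8 h in either apical series, and at 48 h 8 to 13 in apical 50% and 7 to 11 in apical 80% tips. Members called lower at 48 against 8 h were then 10 to 12 in apical 50% and 7 to 12 in apical 80% tips. Those called higher in apical 50% than in apical 80% tips were 5 to 8 at 0 h and 3 to 4 at 8 h. Any change over time was called in 26 to 30 members in apical 50% and 25 to 28 in apical 80% tips, and a difference in time course in 1 to 2. Intact animals were higher than apical 50% tips at 0 h in 14 to 17. With the replicate letter as a block within each time, 5 members were called for the difference in time course. It also gave 5 and 7 members called higher at 1 h in apical 50% and apical 80% tips and 5 and 8 at 2 h, and 4 called lower at 2 h in apical 50% tips. It moved no count at 8 or 48 h against 0 h by over 1.5 times for members called higher, and with the letter as a block over all libraries 14 members were called higher at 8 h in apical 50% and 18 in apical 80% tips. Letters did not pair the 8 h and 0 h libraries of either apical series. Fits with libraries left out have fewer samples, and the cause of the other differences was not tested. The rule found 32, 36 and 29 members without the A, B and C libraries, of which 28, 27 and 26 were among the 31. With TMM-scaled CPM it found 33, the 31 included, and 21 were found each time. Depth limits the members with few reads at 0 h, such as loc18216 and loc15652, whose ratios have wide counting intervals.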
